A study of Mus musculus with 12 samples.

Results

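Cluster 11, the dendritic cells (DCs) of MC38 tumors that carried the migration receptor gene Ccr7, held 1524 of the 93126 cells in the data (1.64%) and ranked 15 by size among 27 clusters. Its members were all cells that the authors' own clustering had numbered 11, and no gene level was used here to choose them. Each of the 12 pools gave between 85 and 187 of these cells, and each of the 48 tumors between 0 and 89.

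Conventional DCs take up antigen in a tissue and come in a cDC1 form, known for presenting antigen to CD8 T cells, and a cDC2 form, known for presenting to CD4 T cells. When either form matures, it raises CCR7, the receptor for the lymph node chemokines CCL19 and CCL21, and gains costimulatory molecules, cytokines and the inhibitory ligand PD-L1 while antigen uptake ends. In tumors such mature cells are met both on the way to the lymph node and beside T cells within the tumor, and NF-kB signaling is known as a driver of the maturation program.

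The tumors were grown under the skin of female mice of 8 to 12 weeks from MC38, a colon carcinoma line of C57BL/6J (B6) origin. Hosts were B6 mice or F1 offspring (CCF1) of C57BL/6J and a Collaborative Cross strain, and each received 1 intraperitoneal dose of 200 µg of an isotype control antibody (clone 2A3) or of an antibody to PD-1 (aPD1, clone 29F.1A12), 48 h before the tumor was taken. The study classed CC001/UncJ, CC002/UncJ and CC075/UncJ CCF1 mice as responder strains (10 isotype and 10 aPD1 tumors) and CC036/UncJ, CC079/TauUncJ and CC080/TauUncJ CCF1 mice as non-responder strains (9 and 9), from tumor growth in other animals, while CC007/UncJ CCF1 and B6 hosts (5 and 5) had no class. The class is thus a property of 3 strains against 3 strains, and what else sets these genotypes apart cannot be told apart from it. Cells of frozen tumors were tagged with hashtag antibodies, sorted so that 90% carried the leukocyte protein CD45 and 10% lacked it, and sequenced in pools of 4 tumors, a design in which the sort sets every share of all cells. Isotype and aPD1 tumors shared 0 hashtags, so that an effect of the tag and of the treatment cannot be told apart, and 1 animal identifier stood on an isotype and an aPD1 tumor of CC080 hosts.

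The median cell of cluster 11 had 3652 unique molecular identifiers (UMIs, one per captured RNA molecule), 1398.5 genes and 0.910% mitochondrial UMIs, against a median of 3333.5 UMIs over all cells. Median UMIs per cluster 11 cell spanned 1737 to 5137.5 over responder isotype tumors, 2729 to 5463 over responder aPD1 tumors, 2959.5 to 4960 over non-responder isotype tumors and 3399 to 7184 over non-responder aPD1 tumors. A total of 4990 barcodes stood in 2 or more libraries, and 145 cluster 11 cells carried such a barcode, but for only 1 barcode were both copies in cluster 11. In all, cluster 11 held 6633143 UMIs, so a gene with 0 counts could still have had up to 0.452 CPM (the UMIs of a gene in a cluster, scaled to the cluster's total so that all genes sum to 1000000). Such limits and the intervals below cover counting error only.

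The label was checked against 5 markers, which are described here without a test because the clustering itself had used the expression of these cells. Ccr7 (chr11:99144196-99155077, GRCm38, minus strand) stood at 2506 CPM in cluster 11, against 22.5 in the cDC1-like cluster 6, 16.2 in the cDC2-like cluster 14, 0.877 in the macrophage-like clusters and 44.6 in the T and NK cell clusters. Cluster 11 held 86.5% of all Ccr7 UMIs of the series, and 91.0% of its cells had at least 1, against 0.311% of the cells of the largest macrophage-like cluster, cluster 2, whose median depth was 3881 UMIs. The next highest cluster for Ccr7 was a CD4 T cell cluster, cluster 10, at 163 CPM. Il12b (chr11:44400063-44414033, plus strand), which encodes the p40 subunit of the T cell stimulating cytokine interleukin-12, was at 775 CPM against 27.5 and 0.301 in the cDC1-like and cDC2-like clusters, and 32.7% of the cells carried it, against 0.121% in cluster 2. Ccl22 (chr8:94745590-94751699, plus strand), a chemokine that attracts CCR4-bearing T cells, was at 1871 CPM against 21.9 and 49.7. Fscn1 (chr5:142960343-142973185, plus strand), the actin-bundling protein of dendrites, was at 1290 CPM against 1.64 and 2.34. Il4i1 (chr7:44816387-44840809, plus strand), a secreted amino acid oxidase, was at 441 CPM against 1.54 and 19.8.

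Counted cell by cell, 16 of the 1524 cells had none of the 5 markers, 104 had 1, 220 had 2, 413 had 3, 553 had 4 and 218 had all 5. At least 3 markers were thus present in 77.7% of cluster 11 cells, while 32 of 91602 other cells (0.0349%) reached that number, and 19 of these lay in the cDC2-like cluster. Any marker at all was found in 98.95% of cluster 11 cells and in 2.47% of cluster 2 cells. The markers therefore went with the label.

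Beyond the markers, 12 genes had the highest ratio to the next highest cluster among genes of at least 50 CPM. The ratio was largest for Gm13546, annotated as an antisense transcript (chr2:58164001-58177063, plus strand), at 279 CPM against at most 4.74 in any other cluster. Nudt17, of the Nudix hydrolase family, followed at 172 CPM against at most 3.44, and Apol7c, of the apolipoprotein L family, stood at 94.5 CPM against at most 2.80. Slc44a5, a choline transporter-like gene, was at 112 CPM against at most 4.90, Tmem150c at 72.5 against at most 3.20, Mab21l3 at 91.7 against at most 5.12, and Cacnb3, a regulatory subunit of voltage-gated calcium channels, at 571 against at most 26.3. The antisense transcript Gm16685 (58.3 CPM) and the markers Ccl22, Il12b, Il4i1 and Ccr7 made up the 12. Slc44a5 returns below, since it was also among the genes that differed between the strain classes.

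**Figure D1:**
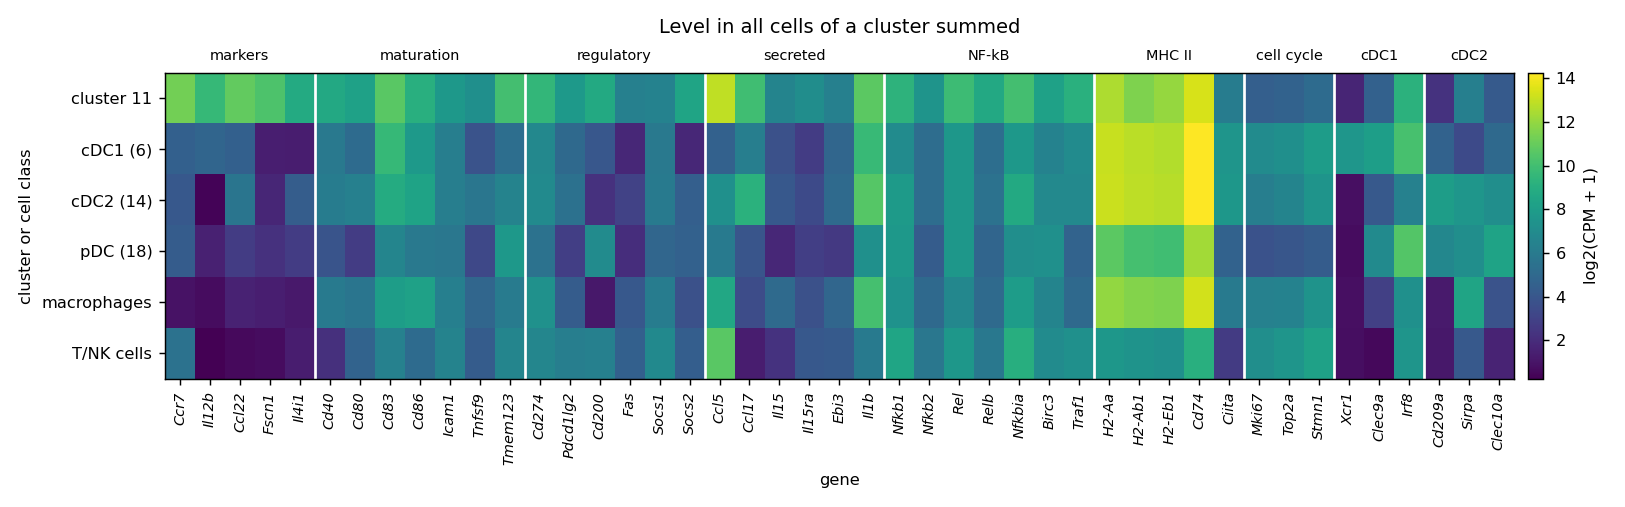
Expression of the named genes in cluster 11 and in 5 other cell classes, as log2(CPM + 1) of all cells of the class summed. Rows are classes, columns are genes ordered by role, and brighter color (toward yellow) is a higher level. Ccr7, at 2506 CPM in cluster 11 and at most 163 in any other cluster, and its neighbors in the marker block form the contrast, while the MHC class II genes are high in the 3 DC rows.

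The maturation and costimulation genes were high in cluster 11, with 8 of the 10 list members that reached 10 CPM more than 2-fold above both the cDC1-like and the cDC2-like cluster and 0 below both. Among all 8479 genes at that level 8.92% lay above both clusters and 12.6% below both, which is the background for each such count here. The lists were chosen with earlier results of these data known, and some hold the markers Ccr7, Fscn1, Il12b or Ccl22. The clustering had also used the expression of these cells. The list counts are thus a description and not a test. Cd40, the receptor for the helper signal CD40L, stood at 419 CPM against 57.8 in the cDC1-like and 69.1 in the cDC2-like cluster. Cd80, a ligand of CD28, was at 308 CPM against 33.6 and 79.3, and its partner Cd86 at 549 against 222 and 331. Cd83, a surface sign of DC maturation, was at 1629 CPM against 799.7 and 470.1, and Tmem123 at 1055 against 39.1 and 89.1. Tnfsf9, the 4-1BB ligand, was at 150.2 CPM, Cd70, the CD27 ligand, at 43.6 and Tnfsf4, the OX40 ligand, at 40.7. Lamp3, a marker of mature DCs in humans, and Tnfsf18, the GITR ligand, had 0 counts.

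Genes known to restrain T cells or the DC itself were high in the same cells, with 6 of 8 measured members above both clusters and 0 below. Cd274, which encodes PD-L1, stood at 734 CPM against 107 and 120, although the granulocyte-like cluster 16 had more (1179 CPM). Pdcd1lg2, which encodes PD-L2, was at 229 CPM against 32.1 and 42.5. Cd200, whose receptor quiets myeloid cells, was at 436 CPM against 15.2 and 3.71, and Socs2, an inhibitor of cytokine signaling, at 344 against 2.46 and 21.2. Fas, the death receptor, was at 80.5 CPM against 2.46 and 7.08. Aldh1a2, of retinoic acid synthesis, reached 25.03 CPM, while the tryptophan enzyme gene Ido1 (0.452 CPM) and Il10 (0.302 CPM) were at or under the level that 3 counts would give.

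Of the cytokine list, 5 of 9 measured members were above both clusters and 1 was below. Alongside Il12b, the gene for the p35 partner chain of interleukin-12, Il12a, had 0 counts, the p19 chain of interleukin-23, Il23a, was at 0.452 CPM, and Ebi3, a chain of interleukin-27, was at 79.1 CPM. Il15, which sustains CD8 T and NK cells, stood at 94.5 CPM against 12.0 and 15.9, and the chain that presents it, Il15ra, at 137 against 5.53 and 9.42. Il1b was at 1707 CPM against 818 and 1482, and Il18 was the member below both clusters, at 5.88 CPM against 55.3 and 14.97.

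Of the 8 chemokines measured, 3 were above both clusters and 1 was below. Ccl5, a chemokine that attracts T cells, was at 7790 CPM against 22.9 in the cDC1-like and 152 in the cDC2-like cluster, more than in any T or NK cell cluster, where cluster 7 had the most (3302 CPM). Ccl17, the other ligand of CCR4, was at 986 CPM against 74.8 and 582, and Cxcl16, the ligand of CXCR6, at 676 against 130.1 and 252. Cxcl9, an interferon-γ induced ligand of CXCR3, was at 545 CPM, between the cDC2-like cluster (496) and the macrophage-like clusters (897). Ccl4 was the member below both clusters, at 151 CPM against 615 and 309. Ccl19, itself a ligand of CCR7, stood at 0.754 CPM.

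The receptors that read these signals were found on other cells. Il12rb2, a chain of the interleukin-12 receptor, stood at 196 CPM in the cytotoxic T cell clusters 3 and 13, 175 in the NK cluster 24 and 161 in the CD4 T cell cluster 10. Il2rb, which also serves the interleukin-15 receptor, was at 820 CPM in the NK cluster and 534 in the cytotoxic clusters. Cd40lg, the ligand of CD40, was at 239 CPM in cluster 10, Cxcr6 at 211 in the cytotoxic clusters and Tnfrsf9, the receptor for the 4-1BB ligand, at 1145 in the regulatory T cell cluster 8. Ccr4 reached at most 12.4 CPM in any cluster, in cluster 23. Cluster 11 itself carried Tnfrsf9 at 225 CPM, Il2rg at 196, Il2ra at 127, Tnfrsf4 at 64.5 and Il12rb2 at 54.3.

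NF-kB pathway genes were high, 8 of 12 above both clusters and 0 below, with a median log2 ratio of 2.16 to the cDC1-like and 1.37 to the cDC2-like cluster. Relb, the subunit of the noncanonical arm, was at 419 CPM against 38.8 and 45.5, and its partner Nfkb2 at 182 against 37.6 and 36.5. Rel was at 905 CPM against 199 and 199, and Nfkb1 at 634 against 127 and 230. The inhibitor Nfkbia, which NF-kB itself induces, was at 1086 CPM against 207 and 431. Traf1, an adaptor of TNF receptors, was at 565 CPM against 127 and 112, and Birc3, an inhibitor of cell death, at 300.5 against 86.8 and 113. The subunit Rela was at 62.1 CPM.

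The bases before the start of these genes were searched, in RefSeq promoters of the GRCm38.p6 build, for GGGNNTTTCC on both strands, the letters given for a common NF-kB site. Of 32851 promoters, 464 (1.41%) held it within 250 bases before the start. Among the 12 NF-kB list genes 9 had a promoter in the table and 5 of these held a match (Bcl2l1, Nfkb2, Nfkbia, Rel and Tnfaip3), whereas 0 of the 4 markers with a promoter did. A list gene had up to 3 promoters, so the count by gene and the share by promoter are not on one scale. The windows of Nfkbia and Rel are shown, since those of Nfkb2 and Tnfaip3 lie inside the annotated gene. Nfkbia and Rel were more than 2-fold above both other DC clusters, as was Nfkb2. Capitals mark the match, which on the gene's strand reads as the reverse complement, and it starts 29 bases before the gene start for Nfkbia and 91 bases before it for Rel.
Nfkbia, chr12:55492648-55492706, minus strand: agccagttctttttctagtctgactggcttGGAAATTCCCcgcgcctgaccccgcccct
Rel, chr11:23771021-23771090, minus strand: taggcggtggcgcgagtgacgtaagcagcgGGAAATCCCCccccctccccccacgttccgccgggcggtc
A match is a stretch of letters and no measurement of binding.

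Genes of cell movement and the cytoskeleton were above both clusters for 9 of 10 members, with Ccr7, Fscn1 and Cacnb3, all named above, among them. Marcks, which links membrane and actin, was at 1277 CPM against 418 and 230, and its relative Marcksl1 at 976 against 59.4 and 107. Cd63, a tetraspanin of endosomes, was at 662 CPM against 5.53 and 27.5, Itga4, an integrin chain used in homing, at 722 against 114 and 116, and Myo1g, a membrane myosin, at 475 against 88.6 and 90.8.

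Antigen presentation genes divided by class. Of the 12 MHC class II genes, 0 were above both clusters and 4 were below both. H2-Aa was at 5923 CPM against 8481 and 8896, H2-Ab1 at 3019 against 7208 and 7290, and Cd74, the invariant chain, at 10831 against 18918 and 19507. Ciita, the master regulator of the class, was at 68.0 CPM against 186 and 199.6, and H2-DMa, a peptide loading chain, at 194 against 703 and 893. Of the 14 MHC class I genes, by contrast, 3 were above both clusters and 0 below. H2-K1 stood at 2592 CPM against 981 and 1372, and B2m, its light chain, at 4285 against 1385 and 2372. H2-Q7, a nonclassical class I gene, stood at 494 CPM against 104 and 145, and Nlrc5, the regulator of class I genes, at 169 against 52.5 and 62.8.

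All 10 cell cycle genes were below both clusters, among them Mki67 at 21.7 CPM against 129 and 73.3 and Top2a at 23.7 against 150 and 93.1. Of 9 measured antigen uptake receptors 0 were above and 2 below, with a median log2 ratio of 0.34 to the cDC1-like and -2.29 to the cDC2-like cluster, and Cd209a stood at 3.92 CPM against 23.6 and 267. Of 10 immediate early and heat shock genes 4 were below, with Fos at 540.5 CPM against 2291 and 1854. Of 17 interferon-γ genes 2 were above and 1 below (median log2 ratios 0.56 and 0.14), and of 11 type I interferon genes 0 lay either way (0.98 and -0.15).

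Markers of other cell types are given here because they bear on every later comparison. The 10 T and NK cell markers summed to 42.1 CPM over cluster 11, 23 cells (1.51%) had at least 2 UMIs of them, and 97 cells either had such UMIs or exceeded 10303 UMIs. The 9 monocyte and macrophage markers summed to 670 CPM. Per tumor they spanned 118 to 2516 CPM in responder strains (median 348) and 87.7 to 3603 in non-responder strains (median 394), with 0 of the 9 without any count. The 6 plasmacytoid DC markers summed to 425 CPM, with class medians of 373 in responder and 442 in non-responder strains, and nearly all of it was Bst2 (291 CPM) and Tcf4 (130.4), while Siglech was at 0.302 CPM and Klk1 at 0. B cell, granulocyte, fibroblast and tumor cell lists summed to between 6.03 and 11.9 CPM each.

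Whether the cells carried RNA known from the cDC1 or the cDC2 form was read from 10 markers of each. Several of these markers were lower than in the matching DC cluster, with Xcr1, a cDC1 chemokine receptor, at 2.26 CPM against 197 in the cDC1-like cluster, Clec9a, a receptor for dead cells, at 23.1 against 271, and Sirpa, of cDC2 cells, at 75.8 against 190 in the cDC2-like cluster. The cDC1 transcription factors Irf8 and Batf3 were nearer to their cDC1 level, at 600 CPM against 1165 and 192 against 236, and Irf8 was at 82.9 in the cDC2-like cluster. At least 1 UMI of the cDC1 list alone was found in 729 cells (47.8%), of the cDC2 list alone in 75 (4.92%), of both in 584 (38.3%) and of neither in 136 (8.92%). These classes followed depth, with a median of 3174, 2638, 5191.5 and 1514 UMIs respectively. As background, 77.4% of the cells of macrophage-like cluster 2 had a UMI of the cDC1 list and 90.3% one of the cDC2 list, against 86.2% and 43.2% in cluster 11. Without Irf8 the cDC1 list share was 62.3% in cluster 11, 67.3% in cluster 2 and 85.6% in the cDC2-like cluster. The cDC1 list share of cells was thus lower than in both of these clusters once Irf8 was left out, and is no evidence of origin.

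The cells with the cDC1 list alone and those with the cDC2 list alone differed in what they carried, which is given as a description without a test. Il12b was at 1151 CPM in the former and 293 in the latter, a log2 ratio of 1.97, or 2.53 if 2 UMIs were asked for and 1.28 if Irf8 was dropped from the list. Ccl5 was at 9749 against 2522 CPM (log2 ratio 1.95, and 0.79 without Irf8), Fscn1 at 1683.5 against 517 (1.70, and 0.78 without Irf8) and Il15ra at 185 against 30.7 (2.55, and 0.76 without Irf8). The class with the cDC2 list alone held 75 cells, so its Il15ra level rests on few UMIs. MHC class II genes ran the other way, H2-Ab1 at 1840 against 6402 CPM, Cd74 at 8003 against 19006 and Ciita at 37.2 against 136, log2 ratios of -1.80, -1.25 and -1.84, or -1.19, -0.71 and -1.10 if Irf8 was dropped from the list. Of the maturation genes, Cd83 was at 1700 against 1673 CPM, Cd40 at 464 against 241, Cd80 at 354 against 206, Cd86 at 513 against 604 and Tnfsf9 at 162 against 254, while Cd274 was at 792 against 836. Without Irf8 in the list the Cd40 difference was lost, at 446 against 470.1 CPM, and Cd80 was at 354 against 292. Among cells with 1 list alone, Irf8 included, those of the cDC1 list made up a median of 95.2% per responder isotype tumor (80 to 100) and 93.75% per responder aPD1 tumor (78.6 to 100). The medians were 90.5% per non-responder isotype tumor (71.4 to 100) and 91.7% per non-responder aPD1 tumor (75 to 100), so that the 4 groups overlapped. These shares rested in part on Irf8. With it 729 cells had the cDC1 list alone and 75 the cDC2 list alone, and without it 503 and 213.

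**Figure D2:**
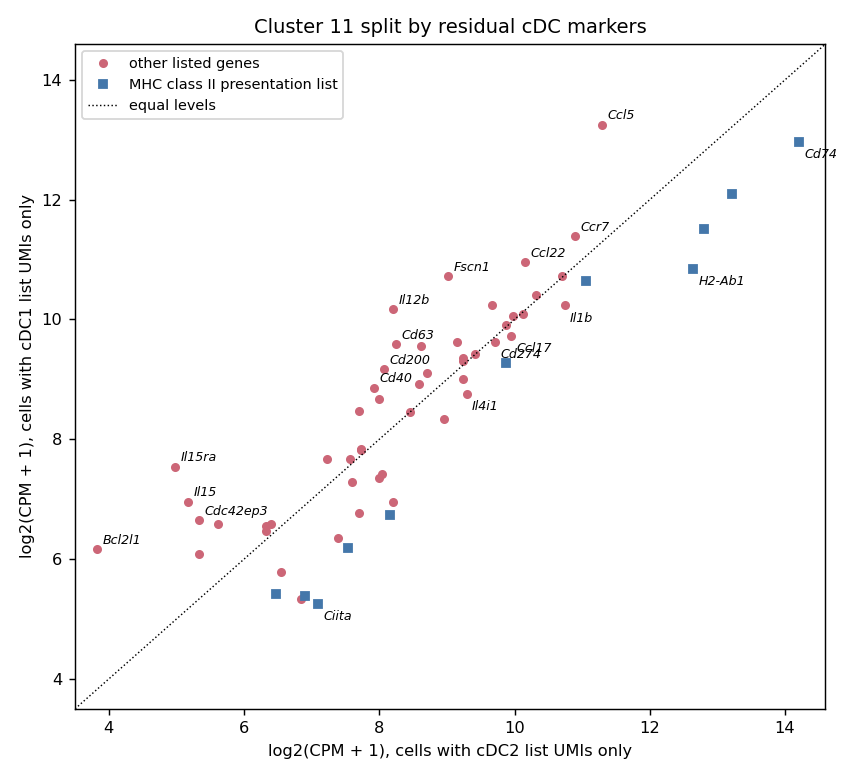
Level of each named gene, as log2(CPM + 1), in the 75 cluster 11 cells with UMIs of the cDC2 list alone (horizontal) against the 729 with UMIs of the cDC1 list alone (vertical), each class summed over all tumors. MHC class II genes (blue squares), such as H2-Ab1 at 6402 against 1840 CPM, lie below the line of equal level, and Il12b and Il15ra lie above it. The Il15ra level of the 75 cells rests on few UMIs.

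The share of cluster 11 among all cells did not separate the groups. In responder strains the isotype tumors ran from 0.316% over a median of 1.52% to 2.70% (mean 1.39 ± 0.752, SD, n = 10) and the aPD1 tumors from 0.857% over 1.66% to 2.56% (1.68 ± 0.623, n = 10). In non-responder strains the isotype tumors ran from 0.803% over 1.51% to 4.08% (1.77 ± 0.983, n = 9) and the aPD1 tumors from 0.478% over 1.63% to 2.86% (1.61 ± 0.630, n = 9). All 4 ranges overlapped. In exact two-sided Wilcoxon tests the aPD1 minus isotype difference was 0.289 ± 0.309 (SE) percentage points in responder strains (exact p = 0.353) and -0.161 ± 0.389 in non-responder strains (exact p = 0.863), and these effects were 0.451 ± 0.460 apart (exact p = 0.661). Responder minus non-responder strains differed by -0.380 ± 0.405 points among isotype tumors (exact p = 0.604) and 0.0704 ± 0.288 among aPD1 tumors (exact p = 0.842). These p-values compare ranks, whereas the differences are of means, for which exact permutation gave p from 0.357 to 0.808 (not adjusted). After adjustment over the 10 share tests the lowest adjusted p of the exact Wilcoxon tests was 0.786.

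Set against the other DCs, that is as a share of clusters 6, 11 and 14, cluster 11 made up 8.11% to 30.6% in responder isotype tumors (median 18.7, mean 19.5 ± 6.37, n = 10) and 14.2% to 40.4% in responder aPD1 tumors (median 22.5, mean 24.5 ± 9.33, n = 10). The non-responder strains had 10.2% to 44.2% in isotype tumors (median 14.1, mean 18.003 ± 10.3, n = 9) and 12.2% to 27.9% in aPD1 tumors (median 18.75, mean 18.8 ± 5.14, n = 9). Of the 10 responder aPD1 tumors 4 stood above every non-responder aPD1 tumor. The class difference in means was 5.71 ± 3.41 (SE) points among aPD1 tumors (exact Wilcoxon p = 0.182). Among isotype tumors it was 1.54 ± 3.98 (exact Wilcoxon p = 0.156). These p-values compare ranks and not means. The medians differed by 3.72 and 4.56 points, and exact permutation of the means gave p = 0.126 and 0.727 (not adjusted). The aPD1 effect was 4.93 ± 3.57 points (unpaired SE) in responder strains (exact Wilcoxon p = 0.393), with the aPD1 tumor higher in 7 of 10 pairs of the same pool and strain. In non-responder strains it was 0.749 ± 3.84 (exact Wilcoxon p = 0.297), with 6 of 9 pairs higher. The medians differed by 3.78 and 4.62 points, and exact permutation of the means gave p = 0.187 and 0.886 (not adjusted). Exact sign flips of the paired differences gave p = 0.0996 and 0.871 (not adjusted). One pair set the non-responder mean, the CC036 pair of pool 8 at -25.4 points, and the other 8 pairs averaged 4.02 ± 4.61 (SD) with 6 higher. With the pool as a block the isotype class difference was 6.59 points, with responder tumors higher in 7 of 8 pools (exact sign-flip p = 0.0234, not adjusted). Only pools with both classes entered. The CC036 isotype tumor of pool 8 (44.2%) and the responder isotype tumors of pool 12 (8.11% and 16.7%) were thus left out, so this value does not show blocking alone. For the share of all cells the same block gave -0.00347 points, with responder tumors higher in 4 of 8 pools. The DC share also depends on the number of cells in clusters 6 and 14. Without that CC036 tumor only, a comparison added after seeing the data, the isotype class difference was 4.81 points over all pools (exact Wilcoxon p = 0.0434, not adjusted). In the share of all cells it was then -0.0918 points. Both alternatives left out the same CC036 tumor and are not separate support. Both also took tumors or pools as the unit, whereas the class belongs to strains. With strain means over all tumors the class difference was 1.70 points among isotype and 6.25 among aPD1 tumors (exact permutation p = 0.7 and 0.3, not adjusted). With 3 strains per class that test cannot reach a p under 0.05. Among responder strains, CC075 CCF1 tumors had the highest share with aPD1, 35.7 ± 6.70% against 22.1 ± 7.40% with isotype (n = 3 each), a comparison picked after its values were seen.

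These differences in share were not alike in 2 sets of pools, 1 to 6 and 7 to 12, which held partly different strains. The cut was made here. The labels give pool numbers, and the library names add serial numbers that run on within smaller groups of pools than these sets. The paper corrected its clustering for the processing date of the libraries. No date per pool was given, so no technical meaning of the sets is known. CC079 tumors stood in pools 1 to 6 alone and CC036 and CC075 tumors in pools 7 to 12 alone, whereas CC001, CC002 and CC080 tumors were in both. In CC001 CCF1 tumors the aPD1 minus isotype difference in the DC share averaged -1.38 points over 3 pairs of pools 1 to 6 and was 10.4 in the pair of pool 12. In CC002 CCF1 tumors it averaged -2.38 points over 2 pairs and was 7.12 in pool 12, and in CC080 CCF1 tumors it was 4.91 over 2 pairs and 4.87 in pool 11. The values of both shared responder strains thus differed between the sets, each with 1 pair in pools 7 to 12 and with no test. Leaving out CC075 took the aPD1 effect on the DC share in responder strains from 4.93 to 1.23 points. In pools 1 to 6 the aPD1 minus isotype difference in the DC share was -1.78 points in responder strains and 4.56 in non-responder strains, so that the effects differed by -6.34 points (exact p = 0.151, n = 5 and 5). In pools 7 to 12 the same values were 11.6 and -4.02, a difference of 15.65 points (exact p = 0.0159, not adjusted, n = 5 and 4). For the share of all cells the 2 sets of pools also had opposite signs, -0.560 points (exact p = 0.151) and 1.55 points (exact p = 0.0635). The class difference was, in pools 1 to 6 and 7 to 12, in the DC share 5.25 and -2.78 points among isotype tumors and -1.09 and 12.9 among aPD1 tumors, and in the share of all cells 0.122 and -0.956 among isotype tumors and -0.437 and 0.591 among aPD1 tumors. Several of the values in pools 7 to 12 rested on the CC036 isotype tumor of pool 8. Without it the aPD1 effect in non-responder strains there was 3.70 points of the DC share and 0.0536 of all cells, the isotype class difference 4.93 and -0.309 points, and the difference of the effects 8.52 (exact p = 0.0357, not adjusted) and 0.929 points. The isotype class difference in the DC share and the aPD1 effect in non-responder strains then had the same sign in both sets of pools. The other differences, the isotype class difference in the share of all cells among them, had opposite signs in the 2 sets.

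**Figure D3:**
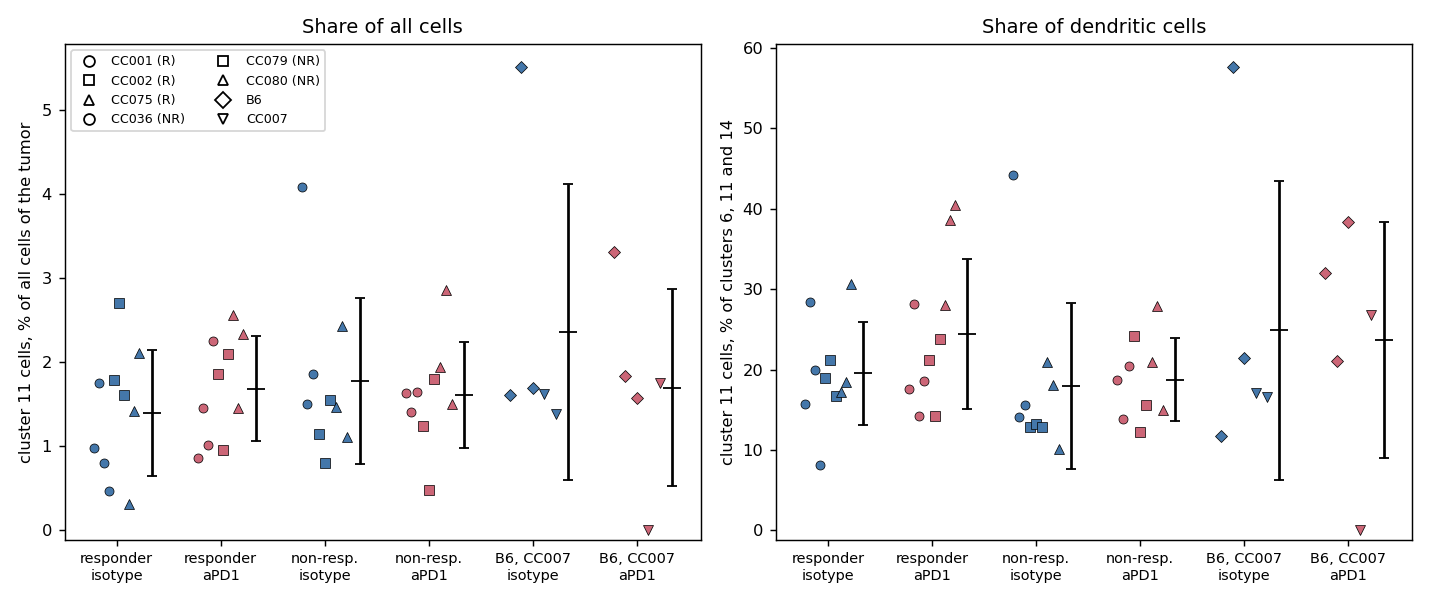
Share of cluster 11 in each tumor, in percent of all cells (left) and of the DC clusters 6, 11 and 14 (right), by class and treatment; shapes are strains, blue is isotype and red is aPD1, and bars give the mean ± SD. The 4 classed groups overlap in both panels, and the CC036 isotype tumor at 4.08% and 44.2% stands apart from the other 8 of its group.

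Without class, B6 tumors had 2.59 ± 1.57% cluster 11 cells (lowest 1.58, median 1.76, highest 5.51, n = 6). The highest value of all 48 tumors was a B6 isotype tumor with 19 of 345 cells (5.51%, exact 95% binomial interval 3.35 to 8.47). The lowest was a CC007 aPD1 tumor with 0 of 53 cells, which allows a share of up to 5.66%.

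For gene levels within cluster 11, the UMIs of each tumor were summed and fitted in edgeR over all 2768 genes that passed the filter on low counts. Of the 38 classed tumors, 3 with under 10 cluster 11 cells were left out, all of them responder isotype tumors, which left 7 and 10 responder and 9 and 9 non-responder tumors with isotype and aPD1. Their summed depth ran from 47281 to 334493 UMIs with a median of 149595. Replicates are separate tumors, except for the repeated identifier named above.

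Responder and non-responder strains differed in 12 genes (0.434% of those tested) at a false discovery rate (FDR) under 0.05 in the edgeR quasi-likelihood test with Benjamini-Hochberg adjustment, 8 higher and 4 lower in responder strains. They were Ly6i, H2-Q7, Rps18, Slc44a5, Il18bp, Vav3, Rnaset2b and Dlgap4, which were higher, and Gm10260, Rpl5, Ifi202b and Ahnak, which were lower. With the pool as a block 31 genes were called, 9 of the 12 among them, and without possible doublets 7, of which 6 were among the 12. With the counts summed per strain and treatment, the fit nearest to the unit of the class, 6 genes were called, of which Gm10260 alone was among the 12, and the other 11 kept their direction with an edgeR FDR between 0.0592 (Ly6i) and 0.564 (Rpl5).

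Gm10260, a retrogene (chr13:97760072-97760632, minus strand), had the largest difference. The 17 responder tumors held 0, 0 and 127 CPM (lowest, median, highest), with 28 UMIs in all and 11 tumors at 0, while the 18 non-responder tumors held 292, 601 and 887 CPM with 1632 UMIs in all. Every responder tumor lay below every non-responder tumor, and the log2 difference was -6.13 ± 0.39 (SE, edgeR FDR = 2.85e-15). Gm10260 is a near copy of Rps18, a gene of the small ribosomal subunit (chr17:33951999-33956001, minus strand), with 540 of 545 aligned bases identical (99.1%), so reads of one can be counted on the other and both are uncertain. Rps18 ran the other way, at 919, 1202 and 1590 CPM in responder and 534, 832 and 1254 in non-responder tumors (log2 difference 0.56 ± 0.11, edgeR FDR = 0.0111). The sum of both genes was 947, 1202 and 1590 CPM in responder and 919, 1413 and 2075 in non-responder tumors, ranges that overlapped. In hosts without class, Gm10260 stood at a mean of 676 CPM in CC007 and 17.6 in B6 tumors. Rpl5, of the large ribosomal subunit (chr5:107900502-107909005, plus strand), was lower in responder strains, at 291, 344 and 490.3 against 325, 473 and 802 CPM (log2 difference -0.47 ± 0.10, edgeR FDR = 0.0128).

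Ly6i, a member of the Ly6 family of surface proteins (chr15:74979534-74983430, minus strand), was at 19.6, 83.7 and 510.1 CPM in responder and 0, 19.6 and 76.4 in non-responder tumors. Of the 17 responder tumors 10 exceeded all non-responder tumors, and the log2 difference was 2.57 ± 0.41 (edgeR FDR = 0.000246). The difference was mostly that of CC001 tumors, with a mean of 263 CPM against 92.3 in CC075, 37.4 in CC002 and between 22.2 and 23.9 in the non-responder strains. Without CC001 the log2 difference was 1.45 and no longer passed (edgeR FDR = 0.0537). Ly6i was also the gene of this group with more RNA outside the cluster, at 487 CPM in macrophage-like cluster 2 against 69.0 in cluster 11, and the macrophage marker sums given above overlapped between the classes; their part in the result was not tested. Il18bp, which encodes a soluble binder of interleukin-18 (chr7:102014885-102018690, minus strand), was at 22.7, 64.9 and 150 CPM in responder and 5.85, 21.4 and 61.4 in non-responder tumors (log2 difference 1.18 ± 0.26, edgeR FDR = 0.0184), and 11 of the 17 responder tumors exceeded all non-responder tumors.

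H2-Q7 (chr17:35439155-35443773, plus strand) was at 359, 613 and 867 CPM in responder and 251, 382 and 608 in non-responder tumors, with 10 of 17 responder tumors above all 18 of the others (log2 difference 0.61 ± 0.11, edgeR FDR = 0.00162). It belongs to a family of near-identical class I genes that also differ between mouse strains, and reads were assigned by a single reference genome, so that its level is uncertain where hosts carry other alleles. Ifi202b, an interferon-inducible DNA sensor gene (chr1:173962568-173982744, minus strand), was lower in responder strains, at 0, 9.57 and 66.9 against 0, 65.2 and 138 CPM (35 UMIs in all against 193, log2 difference -2.14 ± 0.45, edgeR FDR = 0.0128). It had its highest means in CC036 (91.4 CPM) and CC080 (92.4), stood at 16.2 in CC079 and 33.2 in CC001, and was at 0 in all B6 and CC007 tumors tested.

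Slc44a5 (chr3:153973436-154271722, plus strand), one of the 12 genes of highest ratio to the next cluster, was at 0, 164 and 299 CPM in responder and 0, 67.8 and 134 in non-responder tumors, and 10 of 17 responder tumors exceeded all of the others (log2 difference 1.19 ± 0.27, edgeR FDR = 0.0184). Vav3, a signaling gene of the Vav family (chr3:109340653-109685698, plus strand), was at 104, 248 and 428 against 76.4, 174 and 286 CPM (0.63 ± 0.14, edgeR FDR = 0.0212). Ahnak, a very large scaffold protein (chr19:8989284-9076914, plus strand), was lower in responder strains, at 27.3, 108 and 223 against 100.4, 183 and 314 CPM (-0.81 ± 0.18, edgeR FDR = 0.0184). Rnaset2b, a lysosomal ribonuclease with a near-identical neighbor copy (chr17:6970634-7011299, plus strand; 0.68 ± 0.16, edgeR FDR = 0.0448), and Dlgap4, a scaffold gene (chr2:156613705-156764363, plus strand; 0.63 ± 0.15, edgeR FDR = 0.0495), completed the 8 that were higher and were named after their values were seen.

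Leaving out 1 strain at a time kept the direction of all 12 genes, and Gm10260 and H2-Q7 also kept their call each time, with log2 differences from -7.05 to -5.62 and from 0.52 to 0.76. Rps18 (0.44 to 0.76 over the 6 fits) was not called without CC002, CC036 or CC080, and Il18bp (0.81 to 1.42) not without CC001, CC036 or CC079. Slc44a5 (0.95 to 1.32) was not called without CC075, CC079 or CC080, and Ifi202b (-2.99 to -1.60) not without CC002, CC036 or CC075. Vav3 (0.47 to 0.78) lost its call without CC002, CC036, CC075 or CC079, Ahnak (-0.93 to -0.69) without CC001, CC075, CC079 or CC080, and both Rpl5 (-0.59 to -0.36) and Rnaset2b (0.54 to 0.78) without CC001, CC036, CC075 or CC079. Dlgap4 (0.53 to 0.71) kept its call only without CC080.

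The class contrast was also read within each treatment, a choice made after the data were seen. Gm10260 and Ly6i were called among isotype tumors, and Gm10260, Il18bp and Vav3 among aPD1 tumors. For Il18bp the log2 class difference was 0.47 among isotype tumors (medians of 32.6 CPM in responder and 28.8 in non-responder tumors, edgeR FDR = 0.989) and 1.90 among aPD1 tumors (65.9 and 13.98, edgeR FDR = 0.00359). For Vav3 it was 0.31 among isotype tumors (medians of 222 and 192 CPM, edgeR FDR = 0.974) and 0.95 among aPD1 tumors (296 and 144, edgeR FDR = 0.0108). The class differences of these genes over all tumors thus came mostly from the aPD1 tumors, while the difference between the treatments itself did not pass for either, at 1.43 ± 0.52 for Il18bp and 0.65 ± 0.29 for Vav3 (edgeR FDR = 0.999 for both).

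**Figure D4:**
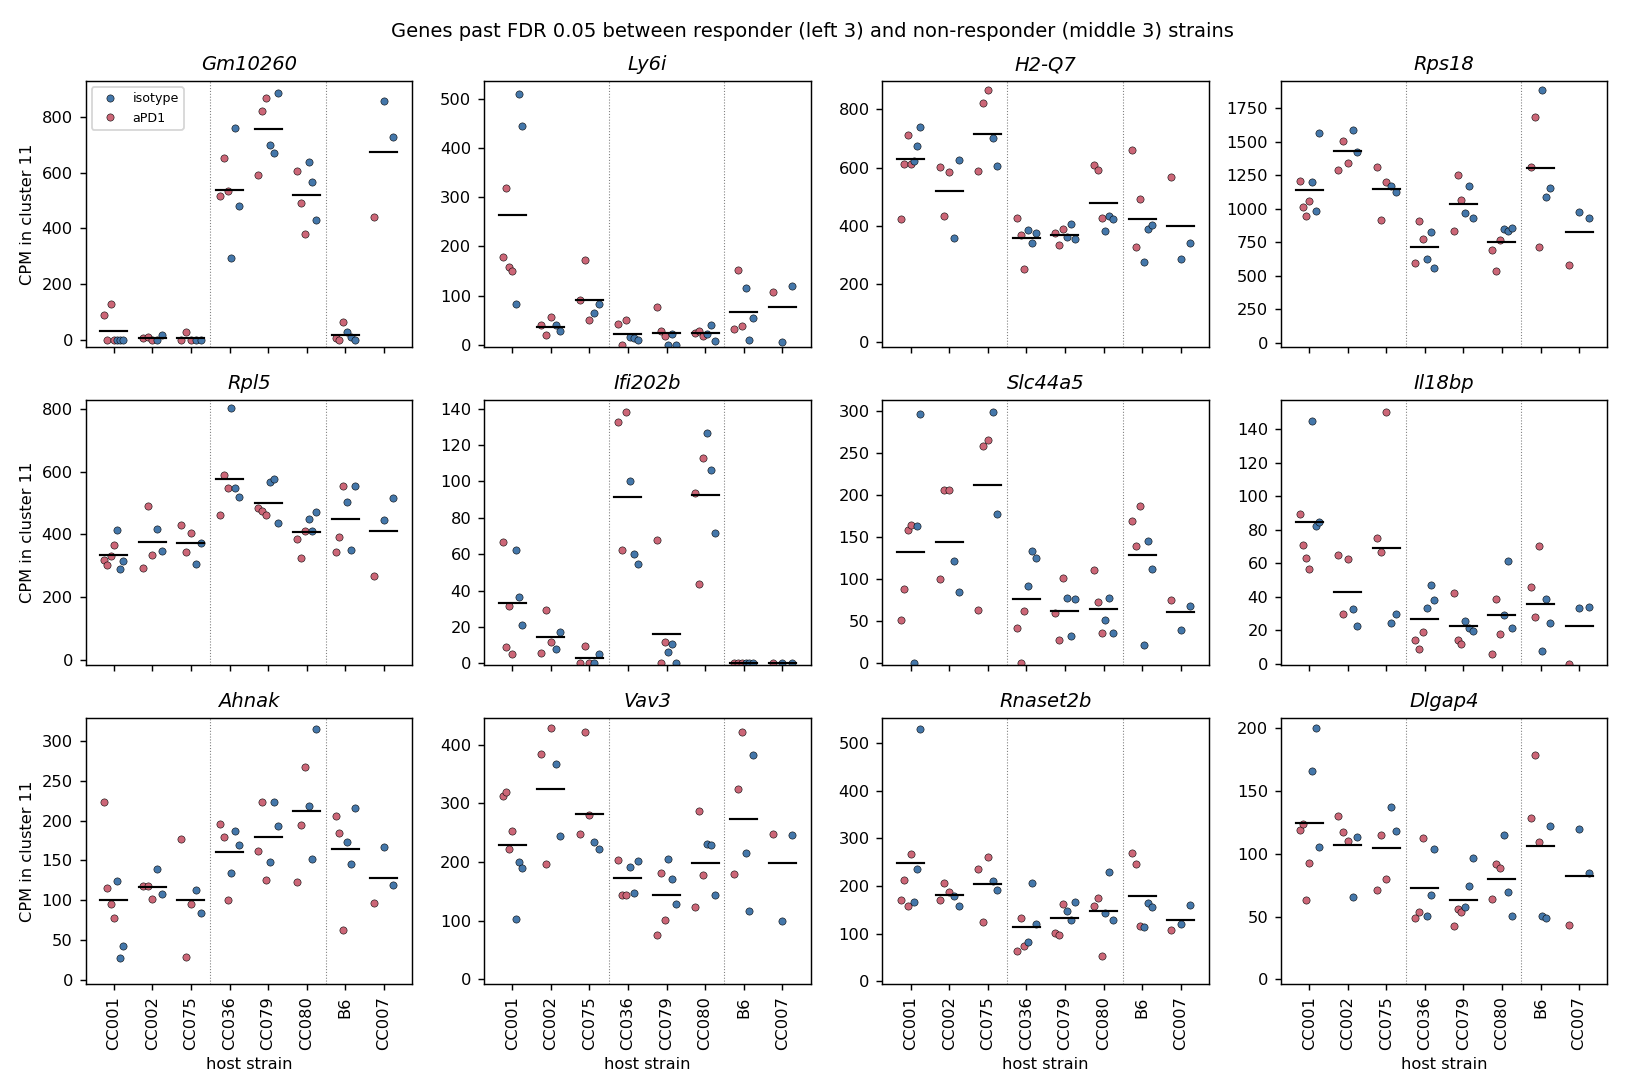
CPM in cluster 11 of each of the 12 genes that differed between responder and non-responder strains, 1 panel per gene; points are tumors with at least 10 cluster 11 cells, grouped by strain, and the line is the strain mean. Gm10260 lies at or near 0 in all responder strains and between 292 and 887 CPM in the non-responder tumors, and the Ly6i difference is carried mostly by CC001.

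Of the 5 marker genes 0 were called between the classes in the edgeR fit. Ccr7 was at 1837, 2413 and 3690 CPM in responder and 1946, 2592 and 3283 in non-responder tumors, a log2 difference of -0.08 with an approximate 95% interval from -0.24 to 0.08 (edgeR FDR = 0.848). Il12b ranged more widely, at 364, 865 and 1541 against 31.4, 640.1 and 1248 CPM (0.41 ± 0.27, edgeR FDR = 0.663). Ccl22 was at 1084, 1931 and 3110 against 986, 1569 and 3423 CPM (0.19 ± 0.15, edgeR FDR = 0.780) and Fscn1 at 306, 1385 and 2819 against 707, 1348 and 1990 (-0.03 ± 0.17, edgeR FDR = 0.984). Il4i1 came nearest, at 233, 375 and 608 against 328, 494 and 736 CPM (-0.45 ± 0.11, edgeR FDR = 0.0627), and it passed in 3 of 19 alternatives, in DESeq2 (FDR = 0.0251), with the set of pools as a term (edgeR FDR = 0.0496) and without CC001 (edgeR FDR = 0.0366). Cd274 overlapped widely at 249, 686 and 1024 against 348, 639 and 1588 CPM, as did Ccl5 at 3988, 10324 and 17301 against 2188, 5754 and 22043.

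Across the functional lists, H2-Q7 was the single member called between the classes, 1 of 13 MHC class I genes tested. Of 12 NF-kB genes tested 0 were called and the median log2 difference was 0.01, and of 10 maturation genes 0 were called with a median of -0.04, against -0.01 over all 2768 genes. The 11 interferon-γ genes had a median of 0.16 with 9 above 0, the 6 cytokines 0.14 with 5 above 0, and the 11 MHC class II genes -0.11 with 5 above 0; none of these members was called in edgeR.

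The aPD1 treatment changed no gene past the threshold in cluster 11. In edgeR 0 of 2768 genes (0%) were called in responder strains, with 83 at an unadjusted p under 0.05, 0 (0%) in non-responder strains, with 94, and 0 (0%) for the difference between these effects, with 108, and DESeq2 also called 0 in each. Uncalled genes with the lowest p among the lists included Nfkbie, an NF-kB inhibitor, with a log2 difference of 0.85 in non-responder strains (edgeR FDR = 0.261), and Tnfsf4, with 1.58 in responder (edgeR FDR = 0.999) and 1.08 in non-responder strains.

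The lists of at least 4 tested genes with all estimates on one side in a treatment contrast had 0 members called in edgeR, and they are given by count. Of 8 immediate early and heat shock genes, all 8 had estimates above 0 with aPD1 in responder strains (median 0.50) and 1 of 8 in non-responder strains (median -0.20). The 5 monocyte and macrophage markers tested were all above 0 in the difference between the aPD1 effects (median 1.95), with 3 of 5 above 0 in responder strains (median 0.48) and 0 of 5 in non-responder strains (median -0.94). The 6 cytokines tested all had estimates above 0 with aPD1 in responder strains (median 0.15, from 0.01 to 0.39) and 2 of 6 did in non-responder strains (median -0.20). The 4 type I interferon genes tested had a median of 0.51 in non-responder strains, all above 0, and -0.47 in responder strains, 1 above 0, and in the difference between the effects all 4 were below 0 (median -0.96). Medians over all 2768 genes lay at 0.00 in each treatment contrast and 0.01 in the difference.

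The class contrast was also fitted in the other DC clusters of the same tumors. It called 25 of 4196 genes (0.596%) in the cDC1-like cluster (32 tumors) and 46 of 6979 (0.659%) in the cDC2-like cluster (38 tumors). Gm10260 was called in both, at log2 differences of -7.10 and -5.74, as were H2-Q7 at 0.99 and 1.03 and Rps18 at 0.64 and 0.64. Ly6i at 3.12 and Il18bp at 1.22 were called in the cDC2-like cluster, and Ifi202b at -1.93 in the cDC1-like cluster (edgeR FDR = 0.0172) and not in the cDC2-like one (-1.15, edgeR FDR = 0.205). Ahnak (-0.09 and -0.18), Vav3 (0.05 and 0.03), Rpl5 (-0.17 and -0.12), Rnaset2b (0.38 and 0.16) and Dlgap4 (0.31 and 0.18) were called in neither.

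A call in one cluster and not in another is no difference between them, and the difference itself was tested. The class contrast differed between cluster 11 and the cDC1-like cluster in 2 of 3293 genes (0.0607%), H2-D1 (-0.56 ± 0.11, edgeR FDR = 0.0135) and Ddt (-0.86 ± 0.18, edgeR FDR = 0.0475), both named after their values were seen. H2-D1, a classical class I gene, was 0.51 higher on the log2 scale in responder strains in the cDC1-like cluster (edgeR FDR = 0.000500). Between cluster 11 and the cDC2-like cluster 0 of 4433 genes (0%) differed in edgeR, with 299 at an unadjusted p under 0.05. For Ahnak the difference was -0.73 ± 0.22 against the cDC1-like and -0.54 ± 0.18 against the cDC2-like cluster, and for Vav3 0.61 ± 0.19 and 0.59 ± 0.19, none of which passed (lowest edgeR FDR = 0.357).

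Finally, the share of cluster 11 was set against that of T cells and of the other DCs over the 47 tumors with at least 200 cells, with cluster 11 as a share of the cells outside the T and NK cell clusters, or outside clusters 6 and 14 for the other DCs, and the other population as a share of all cells. With the cytotoxic T cell share, Pearson's r was 0.35 (permutation p = 0.0204, adjusted 0.0613 over 3 relations) and Spearman's coefficient 0.40 (permutation p = 0.0056, adjusted 0.0168). All permutations here shuffled tumors freely, although tumors share host strains and pools. They cannot separate a relation between single tumors from differences between strains. Without the 2 tumors farthest from the median of the cytotoxic share r was 0.33, and the separate values were 0.34 in pools 1 to 6 (permutation p = 0.112) and 0.33 in pools 7 to 12 (permutation p = 0.100). With the regulatory T cell share r was 0.21 (permutation p = 0.147, adjusted 0.203) and Spearman's coefficient 0.16 (permutation p = 0.269, adjusted 0.269), with 0.20 without the 2 farthest tumors, and 0.48 (permutation p = 0.0208) and 0.43 (permutation p = 0.0367) within the 2 sets of pools. The latter value rested on 2 tumors, without which it was -0.18.

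With the summed cDC1-like and cDC2-like share r was 0.19 (permutation p = 0.203, adjusted 0.203) and Spearman's coefficient 0.37 (permutation p = 0.0115, adjusted 0.0172), and 0.14 was left without the 2 farthest tumors. Here the sets of pools differed, with r = 0.58 (permutation p = 0.00404) in pools 1 to 6 and -0.058 (permutation p = 0.795) in pools 7 to 12. The relation to the other DCs was therefore not found in both sets of pools. That to cytotoxic T cells had nearly the same r in each, but with permutation p = 0.112 and 0.100. Spearman's coefficients for it there were 0.43 and 0.42 (permutation p = 0.044 and 0.043, not adjusted). The tumors left out for this relation were those farthest in the cytotoxic share only. The CC036 isotype tumor of pool 8, with the highest cluster 11 share (7.52%), was thus kept. Its weight in the value of pools 7 to 12 was not tested.

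**Figure D5:**
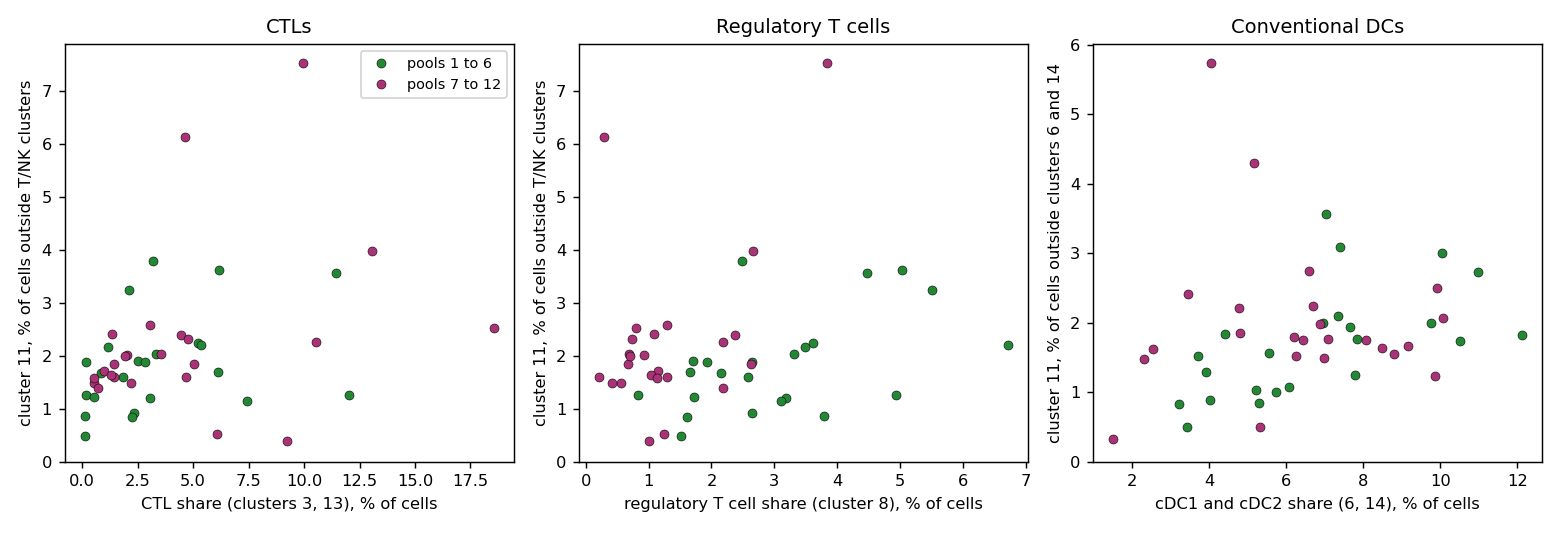
Share of cluster 11 (vertical, percent) against the share of cytotoxic T cells, of regulatory T cells and of cDC1-like plus cDC2-like cells (horizontal, percent), each point a tumor of at least 200 cells; green is pools 1 to 6 and purple is pools 7 to 12. The clouds are wide in all 3 panels, with r = 0.35, 0.21 and 0.19 over 47 tumors.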

How the data were processed

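Single-cell 10x 5′ RNA libraries of 12 pools were used. Per the labels and the submitters' processing notes, reads were aligned to GRCm38 (mm10) with Cell Ranger, and cells were filtered, assigned to tumors by hashtag and clustered in Seurat 5.0.1; the authors deposited raw UMI counts of 27457 genes and a table with each cell's cluster. A tumor is a dataset, strain and treatment. Counts of cluster 11 were summed per tumor (at least 10 cells), filtered with filterByExpr and fitted with edgeR 4.0.16 (TMM, quasi-likelihood, class and treatment) in R 4.3.3. Shares were compared with exact two-sided Wilcoxon tests, blocks and pairs with exact sign flips of the differences, and relations with 100000 permutations (scipy 1.17.1). Differences of means in share were also tested by exact permutation, of tumors and of strain means. Scripts were tested on simulated data. Each pool holds isotype and aPD1 tumors of the same strains, so that pools, per the labels, pair the samples.

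Named genes were the 5 markers, the members of fixed lists, the 12 genes of highest ratio to the next cluster (of 200 or more cells), and up to 6 called genes per direction. The members and lists were chosen with earlier results of these data known. Doublets had no caller; cells with 2 T or NK marker UMIs or above the 95th UMI percentile were left out in an alternative. Other alternatives were DESeq2 1.42.0, other scaling, filters, cell minimums, pools as blocks, and leaving out each strain. Coordinates are whole gene spans of GENCODE vM21. Mx1 and Clec7a were not analysed here.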

Additional observations from a re-analysis of the deposited data

Results flagged for a closer look

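In each class and treatment group, the highest or lowest tumor was compared with its neighbors by Dixon's ratio for shares, the 5 markers and the 12 called genes. Of 78 groups tested 12 had such a tumor, where chance alone flags about 1 in 20 groups.

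A CC036 isotype tumor of pool 8 stood apart by its share of cluster 11, 4.08% of all cells (34 of 833 cells, exact 95% binomial interval 2.84 to 5.66) against 0.803% to 2.43% in the other 8 non-responder isotype tumors, and 44.2% of the DC clusters (34 of 77, interval 32.8 to 55.9) against 10.2% to 20.95%. The same tumor had the highest Rpl5 level of its group, 802 CPM against 409.5 to 576.

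Most of the others were single tumors of responder strains. Ly6i stood at 319 CPM in a CC001 aPD1 tumor, against 19.6 to 178 CPM in the other responder aPD1 tumors. Gm10260 was at 17.03 CPM in a CC002 isotype tumor where the others were at 0, so that any count there would stand apart and the ratio says nothing of its size. H2-Q7 was at 359 CPM in a CC002 isotype tumor, against 606 to 740 CPM. Ifi202b was at 66.9 CPM in a CC001 aPD1 tumor, against 0 to 31.7. Il18bp was at 150 CPM in a CC075 aPD1 tumor, against 29.4 to 89.2. Rnaset2b was at 529 CPM in a CC001 isotype tumor, against 159 to 237. Fscn1 was at 2819 CPM in a CC001 isotype tumor, against 906 to 1544, and Il4i1 at 608 CPM in a CC001 aPD1 tumor, against 233 to 431. Among non-responder strains, Ahnak was at 314 CPM in a CC080 isotype tumor, against 134 to 224.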

How the results depend on the processing

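None of the 10 differences in share passed its test over all 38 classed tumors, but 2 had an unadjusted exact p under 0.05 in an alternative. The values of these differences were unlike in the 2 sets of pools, which among the classed strains shared only CC001, CC002 and CC080. For the share of all cells, pools 1 to 6 gave 0.122 (isotype) and -0.437 (aPD1) points for the class, -0.376 (responder) and 0.184 (non-responder) for aPD1 and -0.560 for the difference of the effects, and the pool block gave -0.0488 for the class among aPD1 tumors. Leaving out 1 strain each gave, in the same order, -0.683 to -0.0261, -0.149 to 0.315, 0.0546 to 0.584, -0.457 to 0.218 and 0.0716 to 0.747. For the share of DCs, the pool block gave 6.59 for the isotype class contrast (exact sign-flip p = 0.0234), against -0.00347 for the share of all cells. The pool block of both shares kept only pools with both classes, so the classed tumors of pools 8 and 12 were left out, the CC036 isotype tumor among them. Pools 7 to 12 gave -2.78 for the isotype class contrast, -4.02 for aPD1 in non-responder strains and 15.65 for the difference (exact Wilcoxon p = 0.0159). Pools 1 to 6 gave -1.09 (class, aPD1), -1.78 (aPD1, responder) and -6.34 (difference). Without the repeated animal identifier the non-responder effect was -0.0256. With strain means in place of tumors the class contrasts were 1.70 among isotype and 6.25 among aPD1 tumors (exact permutation p = 0.7 and 0.3). Without the CC036 isotype tumor of pool 8, added after seeing the data, the isotype class contrast in the DC share was 4.81 (exact p = 0.0434), aPD1 in non-responder strains moved the share of all cells by 0.127 (0.0536 in pools 7 to 12) and the difference of the effects in pools 7 to 12 was 8.52 (exact p = 0.0357). Leaving out 1 strain each gave -0.975 to 4.85, 0.914 to 8.94, 1.23 to 7.17, -1.33 to 4.61 and 0.314 to 6.42. The causes were not tested.

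Between the classes, 12 genes became 115 with no filter on low counts, 5 with tumors of at least 5 cells, 31 with the pool block, 6 with counts summed per strain and treatment (1 higher, 5 lower, only Gm10260 among the 12), 7 without possible doublets, 7 to 22 without 1 strain, and, in alternatives chosen after seeing the data, 2 in isotype and 3 in aPD1 tumors alone. DESeq2 called 18, with 10 of the 12 among them. Without the filter aPD1 had 15 calls in responder and 15 in non-responder strains, and the difference of the effects 25. Under the other alternatives run for them, the treatment contrasts had 0 calls in edgeR and DESeq2. These included a block of pool-strain pairs, while the pool block was run for the class contrast only. Fscn1, not called, changed sign with tumors of at least 5 cells (0.024), in isotype tumors alone (0.035) and between strains left out (-0.42 to 0.12).

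For the relations, r with cytotoxic T cells was 0.34 and 0.33 within the sets of pools, r with regulatory T cells 0.36 (at least 500 cells), 0.39 (classed strains), 0.48 and 0.43 (sets of pools), and r with the other DCs 0.35, 0.40, 0.58 and -0.058. A tumor gave at most 89 cluster 11 cells, which limits all of these values.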
